A study of Mus musculus with 5 samples.

Results

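Transcripts of 10 surface proteins of lymphocytes were followed across sorted mouse spleen T cells: the inhibitory checkpoint receptors Ctla4, Pdcd1, Lag3, Tigit, Havcr2, Cd160 and Btla, the ligand Cd200, the activating receptor Cd226 and the lectin receptor Klrg1. They were taken by gene name, 10 of the 35275 genes in the deposited table, and all 10 passed the filter on low reads. The libraries were 1 of CD8 Treg, 2 of CD4 Treg and 2 of cells labelled CD49lo, all from spleens of WT C57BL/6 mice 3 months old. All 5 passed through a CD8 enrichment and a fluorescence sort on stained cells, and the markers of the sort are not given in the sources used here. The series aims to compare CD4+ and CD8+ Tregs with effector-like CD8+ cells, and CD49lo is the effector-like population by elimination. Every CD8 Treg value is from 1 library, which the test assumes to vary like the replicated groups. The labels give no animal or pool for a replicate, so a p-value here reflects library-to-library spread that could be purely technical.

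Checkpoint receptors restrain T cells after activation. CTLA-4 and PD-1 belong to the CD28 family: CTLA-4 takes the B7 ligands away from CD28, and PD-1 binds PD-L1 and PD-L2 and recruits the phosphatase SHP-2 through its tail. TIGIT and the activating receptor CD226 compete for the ligand CD155, and BTLA and CD160 share the ligand HVEM. LAG-3 binds MHC class II, TIM-3 (Havcr2) binds galectin-9 among other ligands, CD200 engages the CD200 receptor, and KLRG1 binds cadherins and marks late effector cells. CTLA-4 is a standing feature of Foxp3+ regulatory T cells, while several of the other receptors appear on CD8 cells after repeated stimulation.

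The libraries held 5441444 to 8354971 reads in genes, recovered from RPKM (reads per length of gene, corrected for depth). A count of 0 allows up to 0.359 to 0.551 RPM (reads scaled to depth alone; 3 reads per library), and such floors, like the intervals given for single libraries, hold counting error alone. The lineage markers followed the labels: Foxp3 measured 0.387 RPKM in CD8 Treg, 146 and 146 in CD4 Treg, and 1.66 and 0.795 in CD49lo, and Cd8a was at 187 RPKM in CD8 Treg, at 0.412 and 0.352 in CD4 Treg, and at 215 and 255 in CD49lo. The noncoding transcript Gm26917 took 6.86% of reads in CD8 Treg and 3.33% to 4.16% in the other libraries, and 84 ribosomal protein genes took 14.7% and 9.72% to 10.9%. Xist, the transcript of the inactive X chromosome in females, measured 0.0834 RPKM in CD8 Treg, 35.5 and 27.2 in CD4 Treg and at most 0.0269 in CD49lo, so sex and population cannot be told apart where CD4 Treg is compared.

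Markers of other cells also differed between the libraries. The 6 NK cell markers, several of which effector CD8 cells also express, summed to 499 RPKM in CD8 Treg, 8.65 and 9.94 in CD4 Treg, and 729 and 2184 in CD49lo; all 6 were lower in both CD4 Treg libraries than in CD49lo, and Ncr1 and Klrd1 were at 0 reads there. Without Gzma, the other 5 NK cell markers summed to 443 RPKM in CD8 Treg, 7.18 and 9.31 in CD4 Treg, and 425 and 605 in CD49lo. For the 6 B cell markers the sum was 61.4 RPKM in CD8 Treg, 8.08 and 11.7 in CD4 Treg, and 118 and 165 in CD49lo. For the 7 monocyte, macrophage and neutrophil markers it was 249.6 RPKM in CD8 Treg, 14.4 and 2.20 in CD4 Treg, and 501 and 452 in CD49lo. The 6 dendritic cell markers gave 8.004 RPKM in CD8 Treg, 0.865 and 0.778 in CD4 Treg, and 41.7 and 43.4 in CD49lo, and the 5 red cell and platelet markers 14.4 in CD8 Treg, 11.97 and 0.799 in CD4 Treg, and 23.5 and 46.5 in CD49lo. The CD8 Treg library lay below both CD49lo libraries for 2 of the 6 NK cell markers, for all 6 B cell markers, for 4 of the 7 myeloid markers and for all 6 dendritic cell markers. Xcr1 was at 0 reads in both CD4 Treg libraries and Clec9a at 0 in CD8 Treg, while every B cell and myeloid marker had reads in CD8 Treg and CD49lo. The part of other cells in the results that follow was not tested.

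**Figure D1:**
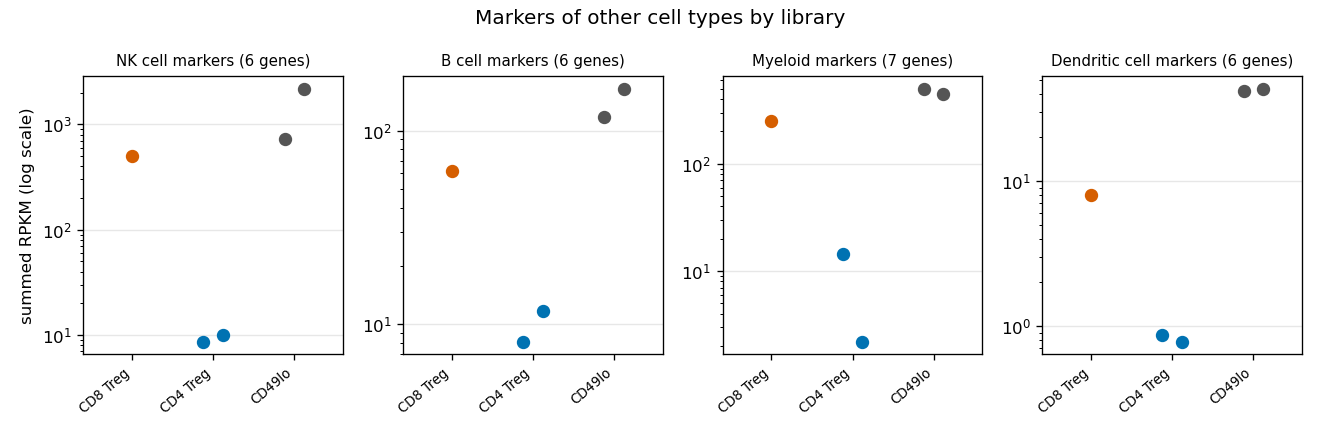
Summed RPKM of marker genes of other cell types (log axes, a scale for each panel), 1 point per library, for CD8 Treg, CD4 Treg and CD49lo. The CD8 Treg point lies between the others in each panel, with 499 RPKM for NK cell markers and 61.4 for B cell markers. For NK cell markers this rests on Gzma, without which CD8 Treg sums to 443 RPKM and CD49lo to 425 and 605.

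The CD8 Treg library held little of most checkpoint transcripts. Against CD49lo, 8 of the 10 genes were lower and 0 higher in CD8 Treg, where 3.65% of all genes tested were lower, 1.71% higher and 5.37% called in either direction (limma, adjusted p under 0.05, here and below). The median log2 fold change was -2.21 over the 10 genes and -0.04 over all 13298 genes tested. The 10 genes were chosen with earlier results of these data known, so the contrasts with all genes, here and below, are descriptive. Cd160 and Btla were the genes that did not pass. Limma-voom on the recovered reads called 4 of the 8, and limma called 1 without a filter on low reads and 0 without a trend in the prior, where 8 had an unadjusted p under 0.05. Among all genes called, 31.9% were higher in CD8 Treg; the share was 20.4% without a scaling factor, which moved the median of all genes to -0.16, 50.8% by limma-voom and 85.6% without a filter. In these bulk libraries, fewer expressing cells and less RNA per cell cannot be told apart.

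CD4 Treg differed from CD49lo in both directions. Ctla4, Tigit, Pdcd1 and Cd200 were higher and Havcr2, Klrg1, Cd160 and Cd226 lower in CD4 Treg, so 4 of 10 moved each way, where 9.41% of all genes tested were higher, 12.8% lower and 22.2% called in either direction. The median log2 fold change was 0.22 over the 10 genes and -0.03 over all genes. Against CD4 Treg, 6 of the 10 genes were lower in CD8 Treg and 1, Cd160, was higher, where 8.35% of all genes were lower, 8.51% higher and 16.9% called in either direction. Havcr2, Btla and Cd226 did not pass there. The median log2 fold change of CD8 Treg over CD4 Treg was -3.25 over the 10 genes and 0.02 over all genes. The 3 comparisons share libraries, so their counts are not independent.

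**Figure D2:**
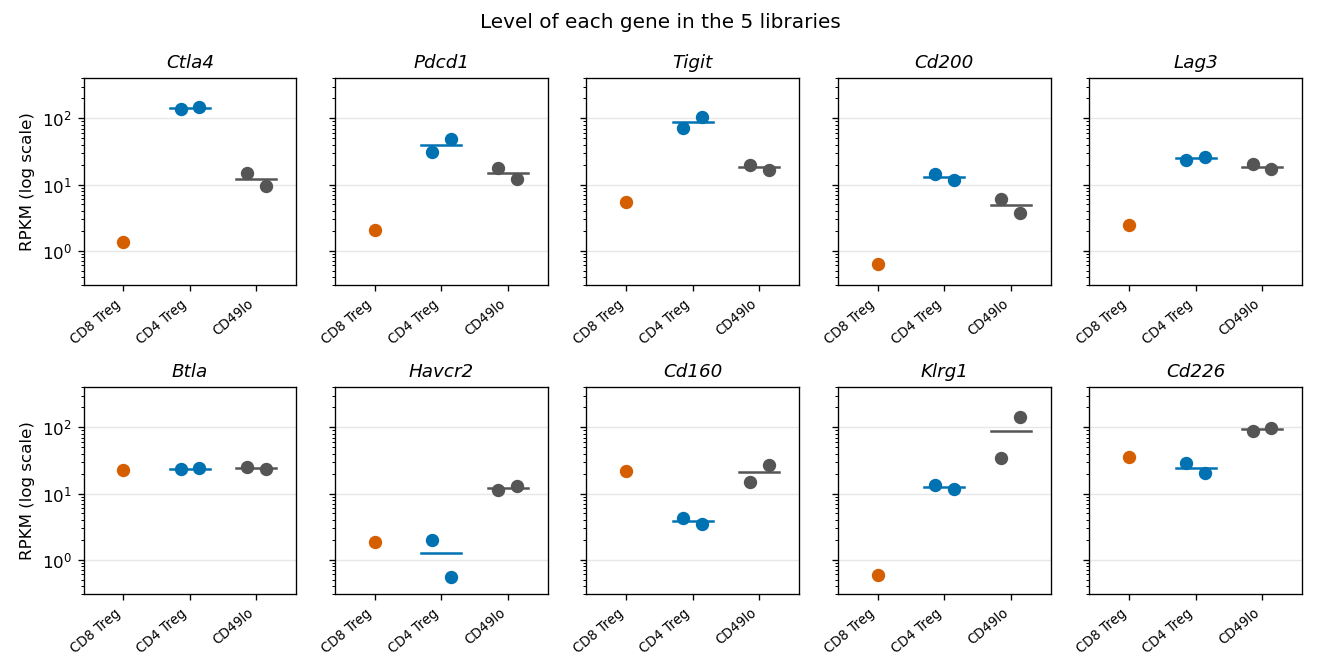
RPKM of each of the 10 genes (log axes) in CD8 Treg, CD4 Treg and CD49lo, 1 point per library, with a line at the mean of each replicated group. Ctla4 spans 1.36 RPKM in CD8 Treg to 146 in CD4 Treg, whereas the 5 Btla values lie between 22.9 and 24.9 RPKM.

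Ctla4, which encodes the B7 receptor CTLA-4 (ENSMUSG00000026011, mm10 chr1:60887000-60915832, plus strand, protein-coding), had the widest separation between the Treg populations. It measured 1.36 RPKM in CD8 Treg, from 16 reads, with an exact Poisson interval of 0.779 to 2.21. In CD4 Treg it was at 137 and 146 RPKM, and in CD49lo at 14.7 and 9.54. The 3 groups did not overlap. The log2 fold change, on the log2(RPKM + 0.5) scale as for every fold change here, was -2.62 ± 0.26 (SE) for CD8 Treg over CD49lo (adjusted p = 0.00112). It was 3.55 ± 0.22 for CD4 Treg over CD49lo (adjusted p = 6.52e-06) and -6.17 ± 0.26 for CD8 Treg over CD4 Treg (adjusted p = 1.86e-06). CD8 Treg held less Ctla4 than either other population. A pseudogene, Rpl18-ps1, lies within the annotated span of Ctla4 on the same strand and had 20 to 33 reads per library, so its reads are few beside those of Ctla4 in CD4 Treg but not in CD8 Treg.

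Pdcd1, which encodes PD-1 (ENSMUSG00000026285, chr1:94038305-94052553, minus strand), was, like Ctla4, highest in CD4 Treg and lowest in CD8 Treg. It measured 2.05 RPKM in CD8 Treg, 30.8 and 48.5 in CD4 Treg, and 17.8 and 12.3 in CD49lo. The groups did not overlap, and the CD4 Treg replicates differed 1.57-fold. Its log2 fold change was -2.47 ± 0.33 for CD8 Treg over CD49lo (adjusted p = 0.00344), 1.38 ± 0.27 for CD4 Treg over CD49lo (adjusted p = 0.0051) and -3.85 ± 0.33 for CD8 Treg over CD4 Treg (adjusted p = 7.61e-05). The call in CD4 Treg over CD49lo was lost without a filter, without a trend in the prior and without CD4 Treg replicate 2, where the value was 1.07. Limma-voom did not call Pdcd1 in CD8 Treg over CD49lo.

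Btla, an HVEM receptor related to the CD28 family (ENSMUSG00000052013, chr16:45224315-45252895, plus strand), passed none of the 3 tests. It measured 22.9 RPKM in CD8 Treg, 23.2 and 24.4 in CD4 Treg, and 24.9 and 23.5 in CD49lo, and the CD4 Treg and CD49lo values overlapped. The 95% interval of the log2 fold change was -0.31 to 0.42 for CD8 Treg over CD49lo, -0.30 to 0.30 for CD4 Treg over CD49lo and -0.31 to 0.42 for CD8 Treg over CD4 Treg. B cells also express Btla. Of the 6 B cell markers, 6 were called lower in CD4 Treg over CD49lo and 6 higher in CD8 Treg over CD4 Treg. In CD8 Treg over CD49lo, 0 were called by limma, with 3 at an unadjusted p under 0.05 and a median log2 fold change of -1.06. The part of B cells in the Btla values was not tested. The sign of the Btla fold change for CD8 Treg turned negative without a scaling factor.

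Tigit and Cd226, which encode the inhibitory and the activating receptor for CD155, went opposite ways in CD4 Treg. Tigit (ENSMUSG00000071552, chr16:43648861-43664184, minus strand) measured 5.47 RPKM in CD8 Treg, 71.8 and 104 in CD4 Treg, and 19.9 and 16.5 in CD49lo. Its log2 fold change was -1.51 ± 0.29 for CD8 Treg over CD49lo (adjusted p = 0.0176), 2.25 ± 0.24 for CD4 Treg over CD49lo (adjusted p = 0.000147) and -3.76 ± 0.29 for CD8 Treg over CD4 Treg (adjusted p = 4.36e-05). The groups did not overlap for Tigit. Limma-voom did not call Tigit in CD8 Treg over CD49lo.

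Cd226 (ENSMUSG00000034028, chr18:89197431-89270201, plus strand) measured 35.1 RPKM in CD8 Treg, 28.7 and 20.2 in CD4 Treg, and 88.9 and 96.9 in CD49lo. Both CD49lo libraries lay above all the others. The log2 fold change was -1.26 ± 0.21 for CD8 Treg over CD49lo (adjusted p = 0.00914) and -1.90 ± 0.17 for CD4 Treg over CD49lo (adjusted p = 5.48e-05). For CD8 Treg over CD4 Treg it was 0.64 ± 0.21 and did not pass (adjusted p = 0.0651, interval 0.18 to 1.11), and it passed without CD4 Treg replicate 1. The ratio of Tigit to Cd226 in RPKM was 0.156 in CD8 Treg, 2.50 and 5.14 in CD4 Treg, and 0.224 and 0.170 in CD49lo. Tigit thus exceeded Cd226 in the CD4 Treg libraries, and Cd226 exceeded Tigit in the other 3.

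Lag3, which encodes the MHC class II receptor LAG-3 (ENSMUSG00000030124, chr6:124904361-124911705, minus strand), was lower in CD8 Treg than in both other populations. It measured 2.47 RPKM in CD8 Treg, 23.5 and 26.2 in CD4 Treg, and 20.1 and 17.0 in CD49lo. Its log2 fold change was -2.56 ± 0.24 for CD8 Treg over CD49lo (adjusted p = 0.000735) and -3.00 ± 0.24 for CD8 Treg over CD4 Treg (adjusted p = 5.50e-05). CD4 Treg over CD49lo did not pass (0.44 ± 0.20, adjusted p = 0.151, interval -0.00 to 0.89).

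Havcr2, which encodes TIM-3 (ENSMUSG00000020399, chr11:46454935-46481255, plus strand), was high in CD49lo and low in both Treg populations. It measured 1.88 RPKM in CD8 Treg, 2.01 and 0.540 in CD4 Treg, and 11.3 and 13.1 in CD49lo. The CD8 Treg value fell between the CD4 Treg replicates, which held 34 and 8 reads. For Havcr2 the log2 fold change was -2.30 ± 0.51 for CD8 Treg over CD49lo (adjusted p = 0.0343) and -2.94 ± 0.42 for CD4 Treg over CD49lo (adjusted p = 0.000898). CD8 Treg over CD4 Treg did not pass (0.64 ± 0.51, adjusted p = 0.455, interval -0.52 to 1.80). The call in CD8 Treg over CD49lo was lost with a pseudocount of 0.1, without Gm26917 and the ribosomal protein genes (chosen after seeing the data) and without either CD4 Treg replicate. Myeloid and dendritic cells also express Havcr2, and their markers, given above, were lower in CD4 Treg than in CD49lo. In CD8 Treg over CD49lo, 1 of 7 myeloid and 2 of 6 dendritic cell markers were called lower. The part of these cells in the Havcr2 values was not tested.

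Cd160, which encodes a glycolipid-anchored HVEM receptor of NK and CD8 cells (ENSMUSG00000038304, chr3:96798763-96829351, minus strand), did not pass between CD8 Treg and CD49lo and was lower in CD4 Treg than in both. It measured 21.6 RPKM in CD8 Treg, 4.23 and 3.48 in CD4 Treg, and 14.97 and 26.7 in CD49lo. The CD8 Treg value lay between the CD49lo replicates, and the interval of their log2 fold change was -0.50 to 0.97 (adjusted p = 0.759). It was higher in CD8 Treg than in CD4 Treg (2.45 ± 0.33, adjusted p = 0.000983) and lower in CD4 Treg than in CD49lo (-2.21 ± 0.27, adjusted p = 0.000334). Pdzk1 overlaps 68 bases of Cd160 on the other strand and had at most 9 reads in a library.

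Cd200, a ligand that engages an inhibitory receptor on other cells (ENSMUSG00000022661, chr16:45382135-45409053, minus strand), measured 0.631 RPKM in CD8 Treg from 9 reads, 14.3 and 11.7 in CD4 Treg, and 6.07 and 3.70 in CD49lo. The groups did not overlap. For Cd200 the log2 fold change was -2.13 ± 0.39 for CD8 Treg over CD49lo (adjusted p = 0.0143), 1.38 ± 0.32 for CD4 Treg over CD49lo (adjusted p = 0.0121) and -3.50 ± 0.39 for CD8 Treg over CD4 Treg (adjusted p = 0.000324). The call in CD4 Treg over CD49lo was lost without a filter and without a trend in the prior. It was also lost without CD4 Treg replicate 1 (value 1.23) and without CD4 Treg replicate 2 (value 1.53). Limma-voom did not call Cd200 in CD8 Treg over CD49lo.

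Klrg1, the cadherin receptor of late effector cells (ENSMUSG00000030114, chr6:122270596-122282882, minus strand), had the widest range of all. It measured 0.582 RPKM in CD8 Treg, from 5 reads, with an exact Poisson interval of 0.189 to 1.36. In CD4 Treg it was at 13.5 and 11.7 RPKM, and in CD49lo at 34.5 and 141. The CD49lo replicates differed 4.08-fold, more than for any other member in that group, and the summed NK cell markers (729 and 2184 RPKM) differed in the same direction. Of that sum Gzma made up 304 and 1580 RPKM, and the other 5 markers 425 and 605. The log2 fold change was -5.93 ± 0.62 for CD8 Treg over CD49lo (adjusted p = 0.00119), -2.40 ± 0.51 for CD4 Treg over CD49lo (adjusted p = 0.00829) and -3.53 ± 0.62 for CD8 Treg over CD4 Treg (adjusted p = 0.00443). Without CD49lo replicate 1 the value was -6.91 for CD8 Treg over CD49lo and -3.38 for CD4 Treg over CD49lo, and without CD49lo replicate 2 it was -4.93 and -1.41. The call in CD4 Treg over CD49lo was also lost without either CD4 Treg replicate, without a filter and without a trend in the prior. The CD8 Treg library thus lay below the lower CD49lo replicate as well. In a fit on the recovered reads (limma-voom), Klrg1 in CD8 Treg passed against neither CD49lo nor CD4 Treg.

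**Figure D3:**
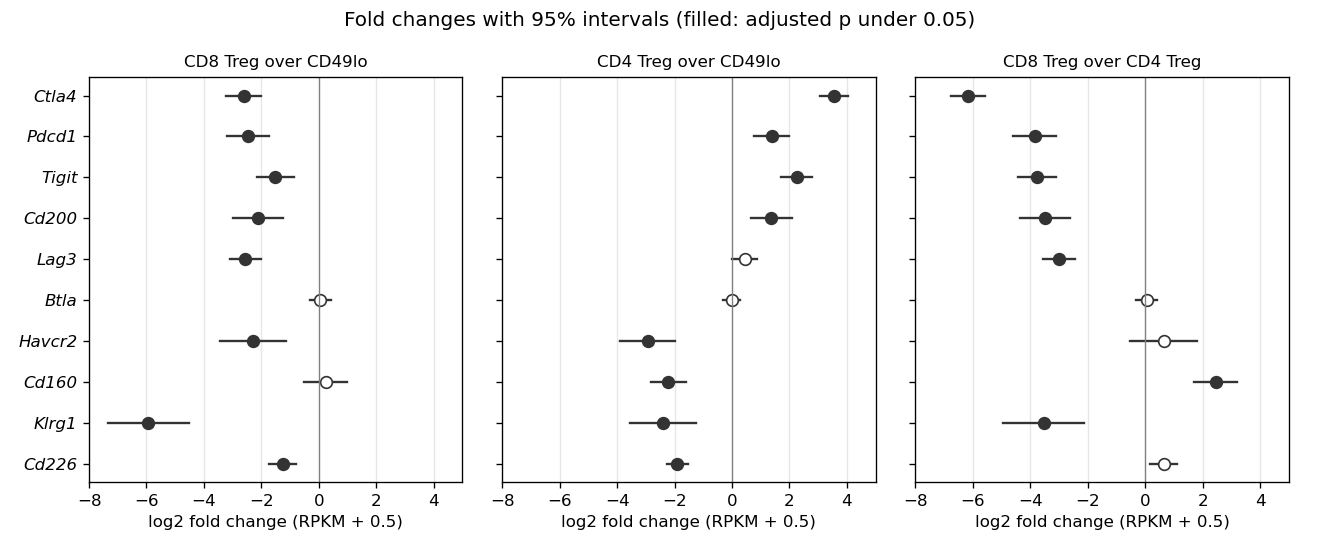
Log2 fold changes of the 10 genes on the log2(RPKM + 0.5) scale, with 95% intervals, in the 3 comparisons; filled points passed the test. The point for Klrg1 in CD8 Treg over CD49lo lies at -5.93, and the points for Btla lie near 0 in all 3 panels.

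The makeup of the set changed with the population. The 10 genes summed to 94.1 RPKM in CD8 Treg, 349 and 397 in CD4 Treg, and 253 and 360 in CD49lo. In CD8 Treg, Cd226 made up 37.4% of the sum, Btla 24.4% and Cd160 22.9%, and 6 of the 10 genes were under 3 RPKM. In CD4 Treg, Ctla4 made up 39.2% and 36.9% and Tigit 20.6% and 26.2%, and Havcr2 was the lowest of the 10 in both replicates. In CD49lo the leading gene differed between replicates: Cd226 took 35.1% in replicate 1, against 13.6% for Klrg1, and Klrg1 took 39.1% in replicate 2, against 26.9% for Cd226. Among all genes with reads in a library, Ctla4 stood at the 32.2 percentile in CD8 Treg, at 97.5 and 97.7 in CD4 Treg, and at 74.0 and 58.9 in CD49lo. Btla stood between the 79.9 and 83.9 percentiles in all 5 libraries.

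**Figure D4:**
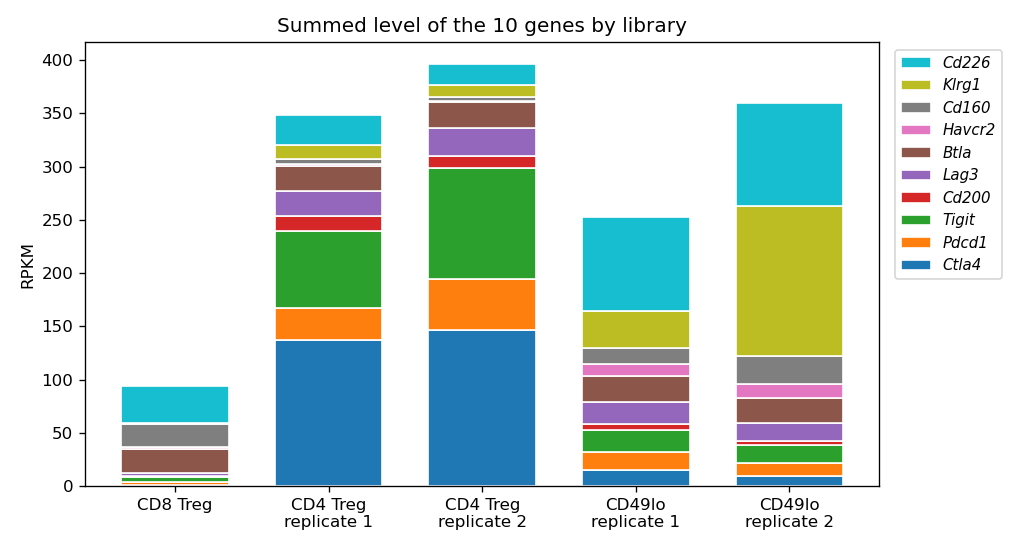
RPKM of the 10 genes stacked for each library, so that a bar's height is their sum. The CD8 Treg bar reaches 94.1 RPKM and is mostly Cd226, Btla and Cd160; Ctla4 and Tigit fill most of the CD4 Treg bars, and Cd226 and Klrg1 are the largest pieces of the CD49lo bars.

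The upstream sequence of 4 members is given because their transcripts moved together or apart: Ctla4, Pdcd1 and Tigit were highest in CD4 Treg, and Havcr2 was highest in CD49lo. Each run holds the 250 bases before the start of the RefSeq transcript (GRCm38.p6), read 5′ to 3′ on the gene's strand. Capitals mark matches, on either strand, to 5 motifs that were searched: GGAAA (NFAT core), TGTGGT (RUNX), TGANTCA (AP-1), GTAAACA (forkhead) and AGGTGT (T-box). Ctla4 is chr1:60908775-60909024 (plus strand), inside the annotated span of the gene, whose longest form starts upstream. Pdcd1 is chr1:94052554-94052803, Tigit is chr16:43664185-43664434 (both minus strand), and Havcr2 is chr11:46454681-46454930 (plus strand).
Ctla4: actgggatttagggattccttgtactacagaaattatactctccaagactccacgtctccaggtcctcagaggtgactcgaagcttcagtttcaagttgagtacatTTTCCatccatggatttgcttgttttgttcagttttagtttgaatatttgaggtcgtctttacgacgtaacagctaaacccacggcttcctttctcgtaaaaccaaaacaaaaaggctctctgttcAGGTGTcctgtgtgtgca
Pdcd1: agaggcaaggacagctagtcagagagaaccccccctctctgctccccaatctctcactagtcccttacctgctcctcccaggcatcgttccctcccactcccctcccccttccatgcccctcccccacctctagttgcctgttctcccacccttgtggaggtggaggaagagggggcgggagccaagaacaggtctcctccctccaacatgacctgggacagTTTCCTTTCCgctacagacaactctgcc
Tigit: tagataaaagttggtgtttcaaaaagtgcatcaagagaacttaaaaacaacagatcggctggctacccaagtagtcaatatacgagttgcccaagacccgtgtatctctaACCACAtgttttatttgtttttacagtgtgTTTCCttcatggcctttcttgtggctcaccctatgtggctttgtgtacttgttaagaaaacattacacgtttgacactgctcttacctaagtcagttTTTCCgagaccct
Havcr2: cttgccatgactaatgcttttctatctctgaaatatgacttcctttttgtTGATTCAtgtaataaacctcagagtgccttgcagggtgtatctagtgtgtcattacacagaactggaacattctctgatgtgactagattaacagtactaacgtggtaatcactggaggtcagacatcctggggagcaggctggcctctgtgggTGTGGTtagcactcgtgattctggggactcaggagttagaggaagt
The Ctla4 run holds 1 NFAT core and 1 T-box match, the Pdcd1 run 2 NFAT cores, the Tigit run 2 NFAT cores and 1 RUNX match, and the Havcr2 run 1 RUNX and 1 AP-1 match; no matches overlap in these runs. Of the members, 7 were used, with 8 start sites. Lag3 and Klrg1 had no promoter entry. Entries on the chromosome of Cd226 were left out of the member set, so Cd226 does not enter these counts. The RUNX letters occurred in 5 of the 8, those of Tigit, Havcr2, Btla and both starts of Cd160, and in 4614 of all 32851 promoters of that length. The NFAT core occurred in 4 of the 8 and in 55.6% of all, AP-1 in 1 and 6.75%, T-box in 1 and 11.8%, and the forkhead letters in 0 and 3.17%. A match is a run of letters and not a binding site, and no binding was measured. Runx3, a factor of the CD8 lineage that binds the RUNX letters, measured 60.6 RPKM in CD8 Treg, 26.9 and 22.9 in CD4 Treg, and 62.3 and 62.8 in CD49lo. Of the members with the RUNX letters, Tigit was highest in CD4 Treg, Havcr2 was highest in CD49lo, Cd160 was lowest in CD4 Treg, and Btla passed no test. A part of Runx3 in their levels was not tested.

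Counts in the lists that follow are to be read beside the share of all genes called in either direction. It was 5.37% in CD8 Treg over CD49lo, 22.2% in CD4 Treg over CD49lo and 16.9% in CD8 Treg over CD4 Treg. At 5.37%, few or no calls in a short list do not set it apart from all genes. Ligands and counter-receptors of these proteins were listed as 12 genes, of which 10 were tested. Against CD49lo, 0 were higher and 1, Cd86, was lower in CD8 Treg (-1.28 ± 0.28, adjusted p = 0.0316; median of the list -0.24). Cd86 encodes a B7 ligand of antigen-presenting cells. In CD8 Treg over CD49lo, 0 of the 6 B cell markers were called by limma, with 3 at an unadjusted p under 0.05 (median -1.06). All 6 were lower in CD8 Treg than in both CD49lo libraries. Of the other markers, 1 of 7 for myeloid cells and 2 of 6 for dendritic cells were called lower. The part of these cells in the Cd86 result was not tested. In CD4 Treg over CD49lo, 4 were higher and 1 lower (median 0.65). Cd200r1, the receptor of CD200, measured 0.261 RPKM in CD8 Treg, 11.2 and 10.1 in CD4 Treg, and 1.71 and 1.69 in CD49lo, and so was higher in CD4 Treg over CD49lo (2.36 ± 0.35, adjusted p = 0.00103) along with its ligand Cd200. Pdcd1lg2, which encodes PD-L2, measured 0.200 RPKM in CD8 Treg, 4.61 and 5.81 in CD4 Treg, and 1.46 and 1.48 in CD49lo (CD4 Treg over CD49lo 1.55 ± 0.39, adjusted p = 0.0189). Lgals9, which encodes galectin-9, was also higher in CD4 Treg (0.62 ± 0.14, adjusted p = 0.00949), and Cdh1, the cadherin ligand of KLRG1, was lower (-2.04 ± 0.39, adjusted p = 0.00498). In CD8 Treg over CD4 Treg, 1 was higher and 4 lower (median -0.78), among them Cd200r1 (-3.83 ± 0.42, adjusted p = 0.000324) and Pdcd1lg2 (-2.98 ± 0.48, adjusted p = 0.0026).

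Other inhibitory receptors were listed as 12 genes outside the set. In CD8 Treg over CD49lo 0 of them were called by limma, where 5.37% of all genes were. Of the 12, 6 had an unadjusted p under 0.05, and their median was -0.44. Ceacam1 (-1.93 ± 0.50, adjusted p = 0.0618) and Lilrb4 (-2.03 ± 0.54, adjusted p = 0.0675) came nearest, followed by Cd244 (-1.89 ± 0.52, adjusted p = 0.0765) and Cd5 (0.46 ± 0.13, adjusted p = 0.0892). In CD4 Treg over CD49lo, 5 were higher and 6 lower (median -0.74). Cd5, a brake on T cell receptor signals, was higher (1.43 ± 0.11, adjusted p = 2.31e-05), and the collagen receptor Lair1 (-4.26 ± 0.31, adjusted p = 1.88e-05) and Cd244 (-4.10 ± 0.43, adjusted p = 0.000143) were lower. Against CD4 Treg, 4 were higher and 5 lower in CD8 Treg (median -0.28), with Lair1 higher (3.59 ± 0.38, adjusted p = 0.000266) and Cd5 lower (-0.97 ± 0.13, adjusted p = 0.00116).

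Activating partners were listed as 9 genes. In CD4 Treg over CD49lo, 8 were higher and 1 lower (median 2.36). The TNF receptor genes Tnfrsf4 (5.24 ± 0.18, adjusted p = 2.74e-07), Tnfrsf18 (2.596 ± 0.14, adjusted p = 3.47e-06) and Tnfrsf9 (2.47 ± 0.18, adjusted p = 1.82e-05) were higher, and Crtam, a CD226-related receptor of cytotoxic cells, was lower (-5.07 ± 0.31, adjusted p = 6.47e-06). In CD8 Treg over CD49lo, 0 were higher and 1, Tnfrsf9, was lower (-1.29 ± 0.22, adjusted p = 0.0106; median 0.24). Cd28, the activating counterpart of Ctla4, measured 28.8 RPKM in CD8 Treg, 45.9 and 51.5 in CD4 Treg, and 31.2 and 26.0 in CD49lo, so the CD8 Treg value lay between the CD49lo replicates while Ctla4 did not. Against CD4 Treg, 1 was higher and 7 lower in CD8 Treg (median -2.09).

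The phosphatases and adaptors that act at the tails of these receptors were listed as 15 genes. Against CD49lo, 0 were called by limma in CD8 Treg, where 5.37% of all genes were, with 4 at an unadjusted p under 0.05 (median 0.08). Ptpn6 had the smallest p (0.47 ± 0.13, adjusted p = 0.0780). In CD4 Treg over CD49lo, 1 was higher and 2 were lower (median 0.04), where 22.2% of all genes were called in either direction. The lower ones were the phosphatases Ptpn22 (-0.66 ± 0.11, adjusted p = 0.00184) and Ptpn6 (-0.63 ± 0.11, adjusted p = 0.00234). In CD8 Treg over CD4 Treg, 3 were higher and 0 lower (median 0.03), where 8.51% of all genes were higher and 16.9% called in either direction. Ptpn6, which encodes SHP-1, measured 249 RPKM in CD8 Treg, 132 and 117 in CD4 Treg, and 188 and 206 in CD49lo (CD8 Treg over CD4 Treg 1.10 ± 0.13, adjusted p = 0.000479). Ptpn11, which encodes SHP-2, measured 11.7 RPKM in CD8 Treg, 19.4 and 19.5 in CD4 Treg, and 22.8 and 17.0 in CD49lo, and did not pass any test. Of 5 genes of CTLA-4 trafficking, 0 were called by limma in CD8 Treg over CD49lo, with 3 at an unadjusted p under 0.05 (median -0.35), 1 was higher in CD4 Treg over CD49lo (median 0.05) and 2 were lower in CD8 Treg over CD4 Treg (median -0.40). The adaptor Trat1 measured 8.43 RPKM in CD8 Treg, 67.9 and 70.4 in CD4 Treg, and 16.3 and 26.3 in CD49lo (CD8 Treg over CD4 Treg -2.86 ± 0.32, adjusted p = 0.000364), and Lrba, which keeps CTLA-4 from lysosomes, was lower in the same comparison (-0.84 ± 0.16, adjusted p = 0.00694).

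Transcription factors tied to checkpoint expression, 18 genes, were lower or not called in CD8 Treg over CD49lo, with 0 higher and 6 lower (median -0.53). The 4 with the smallest p were Id2 (-2.21 ± 0.19, adjusted p = 0.000451), Maf (-1.30 ± 0.19, adjusted p = 0.00552), Zeb2 (-2.33 ± 0.42, adjusted p = 0.0129) and Nr4a1 (-0.95 ± 0.19, adjusted p = 0.0198). Maf, which is known to promote inhibitory receptor genes, measured 1.32 RPKM in CD8 Treg, 42.9 and 40.9 in CD4 Treg, and 4.69 and 3.98 in CD49lo. Ctla4, Pdcd1, Tigit, Lag3 and Cd200 had the same order of groups, although Lag3 did not pass in CD4 Treg over CD49lo. Of the listed factors, Tox, Tox2, Nr4a1, Nr4a3, Batf, Irf4, Prdm1 and Nfatc1 had that order too. A part of Maf or of these other factors in it was not tested. In CD4 Treg over CD49lo, 8 were higher and 4 lower (median 0.39), with Eomes (-5.16 ± 0.16, adjusted p = 2.28e-07) and Tbx21 (-4.75 ± 0.22, adjusted p = 1.42e-06) lower and Maf higher (3.16 ± 0.15, adjusted p = 1.86e-06). Against CD4 Treg, 5 were higher and 9 lower in CD8 Treg (median -0.73), with Eomes, also among the NK cell markers, higher (5.85 ± 0.20, adjusted p = 5.67e-07) and Nr4a1, a factor induced by T cell receptor signals, lower (-1.89 ± 0.19, adjusted p = 0.000177).

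Among 8228 genes eligible by level and type, those closest to a member over the 5 libraries were found from the root mean square difference of log2 values centred on each gene's mean. Ctla4 was closest to Ccr4 (0.40), Nrp1 (0.44) and Cd4 (0.54). Tigit was closest to Tnfrsf9 (0.13), Zfp467 (0.19) and Tbc1d4 (0.19), with Tnfrsf9 at 4.20 RPKM in CD8 Treg, 61.1 and 75.7 in CD4 Treg, and 13.0 and 11.2 in CD49lo. Pdcd1 was closest to Rgs16 (0.14), Spry1 (0.31) and Cd200 (0.33), itself a member. Klrg1 had no close neighbour: the nearest were Hist1h2ad (1.18), S100a4 (1.24) and Stk32c (1.27). With 5 points, 2 pairs of which are replicates, such likeness is a description.

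The calls rest on few libraries, and leaving out either CD49lo replicate ended all 8, 8 and 7 calls of members (CD8 Treg over CD49lo, CD4 Treg over CD49lo, CD8 Treg over CD4 Treg; limma adjusted p from 0.0520 to 0.372), while no called member changed sign. In those fits genes at 0 reads in CD4 Treg have no spread. Leaving such genes out was an alternative chosen after seeing the data, and called members kept their sign there too. Those fits had 1 residual degree of freedom, so their p-values lean on the shared prior and cannot show how firm the calls are.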

How the data were processed

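The authors deposited a table named as counts that holds RPKM for 35275 genes in 5 libraries, along with gene coordinates and lengths. CASAVA, STAR and mm10 are named without versions, per the submitters' processing notes; the counter and its use of strand are not given in the sources used here. Each RPKM value times gene length was a whole multiple of 1 step per library (100% within 0.02 of a whole number), which gave back the reads; the main test is on the RPKM as deposited.

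The model had 1 mean per group and used log2(RPKM + 0.5), in limma (version 3.58.1; R, version 4.3.3), after division by TMM factors (0.935 in CD8 Treg, 1.00 to 1.04 elsewhere) computed from the recovered reads, with 2 residual degrees of freedom. A gene was tested if 1 library had at least 10 reads, rescaled to median depth, and all 5 together had 15, which left 13298. The variance prior followed mean log2 RPM. P-values are two-sided and Benjamini-Hochberg adjusted over all genes tested in a comparison. The fit was run on simulated reads with known changes and the same spread for every gene. That run does not check calls on genes whose replicates differ widely, such as Klrg1. Alternatives were other pseudocounts (0.1, 1), no filter, no scaling, median-of-ratios factors, limma-voom, no trend, each library left out and a replicate block.

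The members and lists were chosen with earlier results of these data known. All 81 genes of the members and 6 lists, and 42 marker genes, were found, some by older symbols. Named in the text are all members, up to 4 genes of smallest p per list and comparison, and the 3 genes most like each of the 4 members of widest range; other genes were chosen after their values were seen. Gene ends matched GENCODE M21 for 7 of the 10 members. The value of 1 listed marker is not reported here.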

Additional observations from a re-analysis of the deposited data

How the results depend on the processing

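Across 384 values of called members under alternatives, 0 changed sign. Counts are given for CD8 Treg over CD49lo, CD4 Treg over CD49lo and CD8 Treg over CD4 Treg in that order, and were 8, 8 and 7 members and 714, 2954 and 2242 genes as reported. Without a filter on low reads they were 1, 1 and 3 members and 452, 685 and 1072 genes. Without a trend in the prior they were 0, 5 and 6 members (8, 8 and 7 at an unadjusted p under 0.05) and 2, 1961 and 1192 genes. Limma-voom called 4 members in CD8 Treg over CD49lo (Ctla4, Lag3, Havcr2 and Cd226). The cause of these shifts was not tested. Leaving out 1 library of CD4 Treg or CD49lo gave 0 to 5, 0 to 6 and 0 to 7 members and 0 to 204, 0 to 1459 and 0 to 976 genes; the 0 came without either CD49lo replicate, where 6 to 8 members had an unadjusted p under 0.05. With genes of no spread left out as well, chosen after seeing the data, it gave 909 to 1219, 2475 to 2879 and 2097 to 2864 genes. Without the CD8 Treg library, CD4 Treg over CD49lo had 8 members and 3130 genes. In CD8 Treg over CD49lo, 7 members were called with a pseudocount of 0.1 and 7 without Gm26917 and ribosomal protein genes, Havcr2 being lost in both.

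Values near 0 that passed no test changed sign. Btla in CD4 Treg over CD49lo was -0.026 without scaling, -0.0049 by limma-voom, and -0.054 to 0.068 with 1 library left out. In CD8 Treg over CD49lo it was -0.075 without scaling and -0.0036 to 0.12 with 1 library left out, and in CD8 Treg over CD4 Treg -0.049 without scaling. Cd160 in CD8 Treg over CD49lo was -0.15 to 0.62, and Havcr2 in CD8 Treg over CD4 Treg -0.0047 to 1.28, with 1 library left out.

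With the replicate number as a block, CD4 Treg over CD49lo had 8 members and 3572 genes called, and Btla was at -0.0037. The block fit had 1 residual degree of freedom, so its counts lean on the shared prior. Deviations of same-numbered libraries had a correlation of -0.020 across genes, so the numbers are not shown to pair the samples. No paired analysis was possible for CD8 Treg because the label of its single library carries no replicate number.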

Other observations

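The genes closest to Havcr2 and to Cd226 over the 5 libraries were looked up after their values were seen. Havcr2 was closest to the histone genes Hist1h4j (root mean square difference 0.28 on the log2 scale), Hist1h2bn (0.31) and Hist1h2ae (0.31). Hist1h4j measured 10.8 RPKM in CD8 Treg, 11.5 and 5.22 in CD4 Treg, and 92.5 and 66.1 in CD49lo. Cd226 was closest to the histone gene Hist2h2ac (0.12), to Gmnn (0.12), which encodes the replication inhibitor geminin, and to Ect2 (0.15), a regulator of cell division. Gmnn measured 10.7 RPKM in CD8 Treg, 8.15 and 6.36 in CD4 Treg, and 28.5 and 24.9 in CD49lo.

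Lag3 was closest to Ptms (0.18), which measured 12.5 RPKM in CD8 Treg, 143 and 153 in CD4 Treg, and 121 and 108 in CD49lo.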
